A study of Rattus norvegicus with 8 samples.

Results

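The genes of Wnt signalling and the secreted frizzled-related proteins were described in the ovaries of rats that carried an androgen implant. The set holds 10 genes, listed by symbol with earlier results of these data known. They are the ligands Wnt4 and Wnt5a, the receptors Fzd1, Fzd2 and Fzd4, the secreted inhibitors Sfrp1, Sfrp2 and Sfrp4, the signal carrier Ctnnb1 and the feedback gene Axin2. All 10 were measured, by 18 of the 31042 probe sets of the array that are not controls, and they are 10 of the 14217 genes that have a probe set of their own. A probe set is a group of short probes for 1 transcript, and where a gene has several, the one brightest on average over the 6 arrays of single animals is given first. The tissue was ovarian cortex of female Sprague-Dawley rats, euthanized when 15 weeks old. The DHT group (3 rats) had carried for 12 weeks a silicone capsule that released 5α-dihydrotestosterone (DHT), an androgen that is not turned into estrogen, and the CTL group (3 rats) had carried an empty capsule. RNA of each rat was read on its own Affymetrix rat genome array, and 1 further array per group held equal amounts of RNA of its 3 rats. The study's methods state that corpora lutea were seen in most CTL ovaries and that few or none were seen in DHT ovaries, so the groups differ in the structures that the cortex contained.

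Wnt ligands are secreted proteins that bind frizzled receptors together with the co-receptors Lrp5 and Lrp6. In the canonical branch this stops the destruction complex, built on Axin and Apc, from breaking down β-catenin, the product of Ctnnb1, which then joins TCF/LEF factors at target genes such as Axin2. Secreted frizzled-related proteins carry a frizzled-like domain and bind Wnt ligands outside the cell. Wnt4 is needed for ovary formation, and in rodents Wnt4, Fzd4 and Sfrp4 are known from luteal cells, whereas Fzd1 is known from granulosa cells around ovulation.

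The values are log2 expression, and 1 unit is a 2-fold difference. The background level of an array was the 95th percentile of 29 probe sets for smell, pheromone and taste receptors, and a value up to that level is called near background. The level lay at 2.67 to 2.77 on 7 of the arrays and 3.09 on that of CTL replicate 3. CTL replicate 3 stood apart from its group. Over all probe sets its array correlated at 0.866 and 0.879 with the other CTL animals and at 0.898 to 0.907 with the DHT animals. A control of RNA quality also differed between arrays. The Gapdh controls at the 3' and 5' end of the message, taken as 3' minus 5' in log2, differed by 3.61, 2.99 and 3.98 in the DHT animals, against 0.39, 0.62 and 3.49 in CTL replicates 1, 2 and 3. For each of the 10 genes measured above background the difference is therefore also given without CTL replicate 3. That animal had a Gapdh difference in the range of the DHT animals, so without it the groups differ in this control as well. Treatment and RNA quality cannot be told apart in that comparison. With all 6 animals CTL replicates 1 and 2 still lay below every DHT animal in this control. Treatment and RNA quality are thus in part confounded there too. Of the granulosa cell markers, 6 of 7 were measured and none was near background on all 6 arrays of single animals.

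None of the 10 Wnt genes was called different between DHT and CTL ovaries. A call needed at least a 2-fold difference, a p up to 0.01 and a false discovery rate up to 10% in limma's test with Benjamini-Hochberg adjustment over all probe sets, from which every adjusted p below comes. By this rule 320 of the 31042 probe sets were called (1.03%, or 1.34% of the 14217 genes), 211 of them higher in DHT (0.68%) and 109 lower (0.351%). At an unadjusted p under 0.05 there were 3 of the 10 genes, Fzd1, Fzd2 and Sfrp4, against 11.9% of all probe sets. That share counts every probe set, dim ones included, and not 1 per gene. The values of the DHT and CTL animals did not overlap for the same 3 genes, with Fzd1 and Fzd2 higher and Sfrp4 lower in all DHT animals, against 21.2% of all genes with no overlap (14.3% higher and 6.81% lower in DHT). Sfrp4 alone had means at least 2-fold apart, a size that 7.11% of genes reached. The 10 log2 fold changes were 5 above and 5 below 0, with a median of -0.01, beside -0.01 over the 14217 genes.

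**Figure D1:**
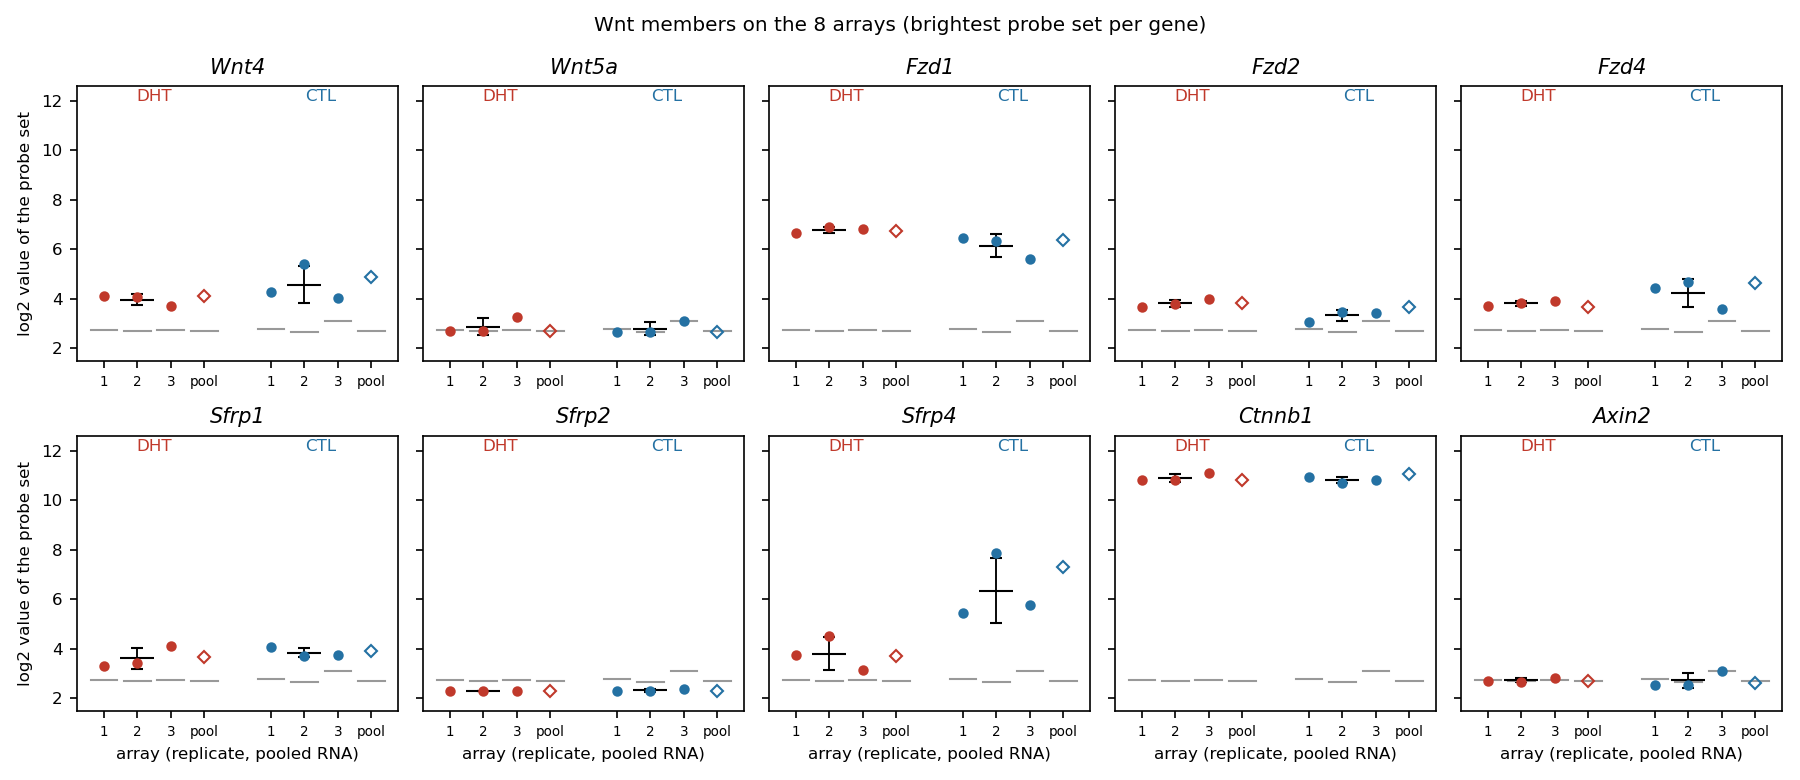
Each panel plots the log2 value (vertical axis) of 1 Wnt gene on each array (horizontal axis), with DHT animals in red left of CTL animals in blue. Open diamonds are the arrays of pooled RNA, black bars are the mean and SD of the 3 animals of a group, and grey ticks are the background level of each array. The Sfrp4 values of the DHT animals, 3.15 to 4.51, lie below all CTL values, 5.43 to 7.85. Sfrp2 lies under the background level on every array.

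Among the ligands, Wnt4 was above background in every animal. Its log2 values were 4.12, 4.09 and 3.72 in the DHT animals and 4.26, 5.43 and 4.03 in the CTL animals. CTL replicate 2 was high, CTL replicate 3 lay within the DHT values, and the groups overlapped. The log2 fold change was -0.60 (SE 0.40, 95% interval -1.61 to 0.41, adjusted p = 0.732), an interval that holds both no difference and a 3.06-fold lower level in DHT. Without CTL replicate 3 it was -0.87 (adjusted p = 0.292), and without CTL replicate 2 it was -0.17.

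Wnt5a, a ligand of the branches of the pathway that do not act through β-catenin, was near background in 2 of 3 DHT animals and in 3 of 3 CTL animals. It had 2.70, 2.68 and 3.27 in DHT, against 2.67, 2.65 and 3.09 in CTL. Only DHT replicate 3 exceeded the background level of its array, and the log2 difference of 0.08 (SE 0.22, adjusted p = 0.902) sets a signal at background against another.

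Of the receptors, Fzd1 had 6.65, 6.90 and 6.83 in DHT and 6.48, 6.33 and 5.61 in CTL ovaries. All 3 DHT animals lay above all 3 CTL animals, by 0.17 between the nearest, and CTL replicate 3 was the lowest. The means were 6.79 ± 0.13 in DHT and 6.14 ± 0.47 in CTL (SD, n = 3 each), a 1.57-fold difference (log2 fold change 0.65, SE 0.25, 95% interval 0.02 to 1.29). The adjusted p was 0.408. Without CTL replicate 3 the log2 fold change was 0.39 (adjusted p = 0.111), and the DHT mean stood 1.18 above CTL replicate 3 alone. With the Gapdh difference as a covariate it was 1.17 (adjusted p = 0.0157), and Fzd1 was called higher, as were 8.57% of all probe sets in that fit. Of the CTL animals only replicate 3 had a Gapdh difference in the range of the DHT animals. The fit with the covariate therefore leans on that array, and its 1.17 lies close to the 1.18 from CTL replicate 3 alone. Markers of granulosa cells were in part higher in DHT too. Of 6 measured, 5 had a higher mean in DHT and none was called, with a median log2 fold change of 0.59, and Cyp19a1, the gene for aromatase, was the one with a lower mean. Their summed level on the linear scale was 6112, 5170 and 6025 in the DHT animals, against 3466, 3910 and 2312 in the CTL animals, with no overlap. Without CTL replicate 3 Inha, Inhbb and Amh stayed above 0 (1.23, 1.25 and 1.12), while Foxl2, Nr5a2 and Cyp19a1 were -0.03, -0.18 and -2.57. The marker lists of theca, stromal, epithelial and smooth muscle cells also had medians above 0 with all animals (1.46, 0.85, 0.36 and 0.24). The part of any of these cell types in the Fzd1 difference was not tested.

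Fzd2 is a receptor for Wnt5a as well as for canonical ligands. Its values of 3.67, 3.80 and 3.98 in the DHT animals lay above 3.07, 3.49 and 3.44 in the CTL animals. Its log2 fold change was 0.49 (SE 0.15, 95% interval 0.11 to 0.87, adjusted p = 0.282), or 1.40-fold, and it was 0.54 without CTL replicate 3 (adjusted p = 0.163).

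Fzd4, which is also the receptor of the protein norrin, ran the other way in part of the animals. It had 3.70, 3.84 and 3.91 in DHT, against 4.45, 4.67 and 3.59 in CTL. CTL replicates 1 and 2 lay above every DHT animal and CTL replicate 3 lay below all of them. The log2 fold change over all animals was -0.42 (SE 0.30, 95% interval -1.17 to 0.34, adjusted p = 0.777). Without CTL replicate 3 it was -0.74 (adjusted p = 0.0422), past the false discovery rate but under 2-fold. A second probe set of Fzd4 was near background on every array, between 2.34 and 2.55 in the single animals.

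Sfrp4 showed the widest difference of the 10 genes. It had 3.75, 4.51 and 3.15 in the DHT animals, against 5.43, 7.85 and 5.77 in the CTL animals. The highest DHT animal lay 0.92 below the lowest CTL animal. The CTL animals were themselves 2.42 apart. The means were 3.80 ± 0.68 in DHT and 6.35 ± 1.31 in CTL (SD, n = 3 each), a level 5.84-fold lower in DHT (95% interval 1.56-fold to 21.8-fold). The log2 fold change of -2.55 (SE 0.75) had a p of 0.0180 in limma's test and an adjusted p of 0.266, so it missed the threshold. It was -2.83 without CTL replicate 3 (adjusted p = 0.168), and the DHT mean stood 1.97 below CTL replicate 3 alone. Without CTL replicate 2 it was -1.80, with the Gapdh difference as a covariate -1.88, and as the mean of both probe sets of the gene -1.30. With the arrays of pooled RNA counted as replicate 4 of each group, Sfrp4 was called lower (log2 fold change -2.81, adjusted p = 0.0392), a call that 1.39% of all probe sets got, although those arrays hold RNA of the same animals. The other probe set of Sfrp4 was near background on all arrays.

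Markers of luteal cells, like Sfrp4, had lower means in DHT. Of 9 such markers 8 were measured, all 8 had a lower mean in DHT and none was called, with a median log2 fold change of -3.05. Their summed level on the linear scale was 4472, 5424 and 1237 in the DHT animals, against 16255, 31578 and 12374 in the CTL animals. CTL replicate 2 was the highest for both Sfrp4 and this sum. Of the single markers, Ptgfr was highest in CTL replicate 1 and Prlr in CTL replicate 3. None of the 8 was near background on all 6 arrays, though Ptgfr was in all 3 DHT animals and in 1 CTL animal. Lhcgr differed by only -0.63 (adjusted p = 0.896), and CTL replicate 3 lay below every DHT animal for it. The study reports Star, Cyp11a1, Rln1 and Hsd17b7 of this list as repressed on the same arrays, so their direction was known beforehand. The part of luteal cells in the Sfrp4 difference was not tested. In RNA of whole tissue, fewer cells of a type and less RNA per cell cannot be told apart.

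The other secreted frizzled-related proteins did not share the pattern of Sfrp4. Sfrp1 had 3.30, 3.43 and 4.09 in DHT and 4.05, 3.72 and 3.74 in CTL ovaries. The groups overlapped through DHT replicate 3, which was the highest of the 6 animals, and the log2 fold change was -0.23 (SE 0.24, 95% interval -0.84 to 0.38, adjusted p = 0.896), or -0.28 without CTL replicate 3. A second probe set of Sfrp1 also gave -0.23, through a single high CTL animal (replicate 3, at 3.82), and without that animal it gave 0.08. Its dimmest probe set was near background throughout. Sfrp2 was near background in all animals by both of its probe sets, at 2.28 to 2.30 in DHT and 2.27 to 2.38 in CTL for the brighter one, so these arrays set only an upper limit on its level.

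**Figure D2:**
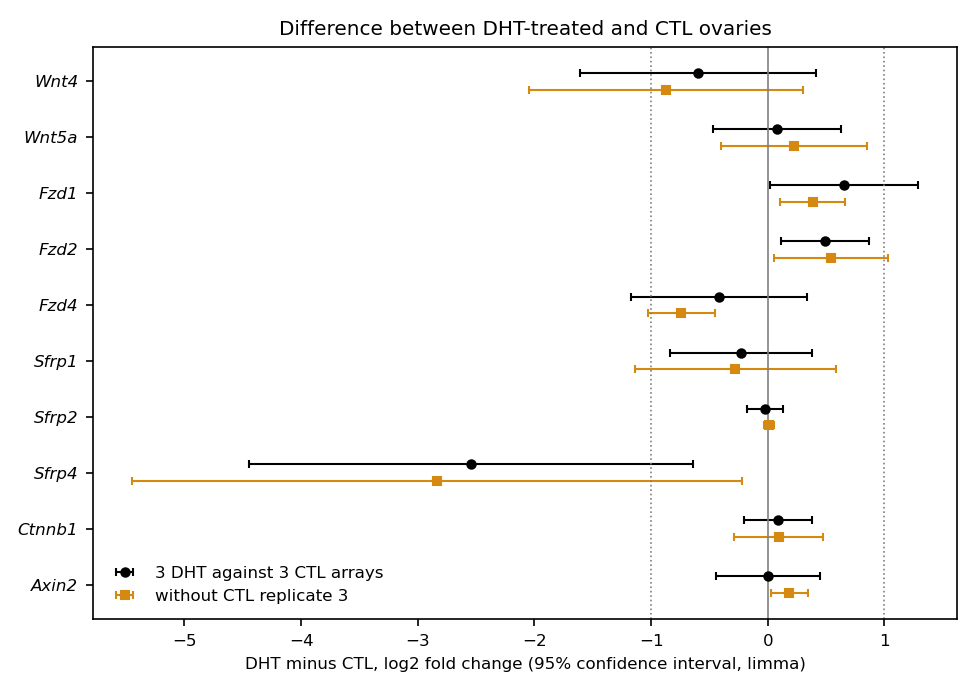
The plot gives for each of the 10 Wnt genes the log2 fold change of DHT over CTL ovaries (horizontal axis) from limma, with its 95% confidence interval, for all 6 animals (black circles) and without CTL replicate 3 (orange squares). Dotted lines mark a 2-fold difference. With all animals only the intervals of Fzd1, Fzd2 and Sfrp4 leave out 0, and without CTL replicate 3 that of Fzd4 does too, at -0.74, as does that of Axin2, a gene near background in both groups, at 0.19.

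Ctnnb1, which encodes β-catenin, was far above background and its brightest probe set was nearly level between the groups. That probe set (1373470_at) had 10.80, 10.81 and 11.09 in DHT and 10.92, 10.70 and 10.83 in CTL ovaries. The log2 fold change of 0.09 (SE 0.11, adjusted p = 0.896) had a 95% interval of -0.20 to 0.38, which leaves out a difference of 1.30-fold or more in either direction, and was also 0.09 without CTL replicate 3.

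The other probe sets of Ctnnb1 departed from it and from each other. Probe set 1373067_at had 10.38, 10.06 and 10.41 in DHT, against 9.12, 9.00 and 10.87 in CTL. Probe set 1369733_at had 2.53, 2.95 and 2.27 in DHT, against 6.61, 5.61 and 2.28 in CTL. In both, CTL replicates 1 and 2 lay outside the range of the DHT animals, below it in one and far above it in the other, and CTL replicate 3 did not go with them. With all animals the log2 fold changes were 0.62 (adjusted p = 0.896) and -2.25 (adjusted p = 0.566). Without CTL replicate 3 they were 1.22 (adjusted p = 0.0317) and -3.52 (adjusted p = 0.0335), and both probe sets were then called, in opposite directions, as were 5.23% of all probe sets. The fourth, 1375284_at, was near background on every array. The Gapdh difference between 3' and 5' probe sets was low in the same 2 animals, 0.39 and 0.62 in CTL replicates 1 and 2, against 2.99 to 3.98 in the DHT animals and 3.49 in CTL replicate 3. Its part in the disagreement was not tested.

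**Figure D3:**
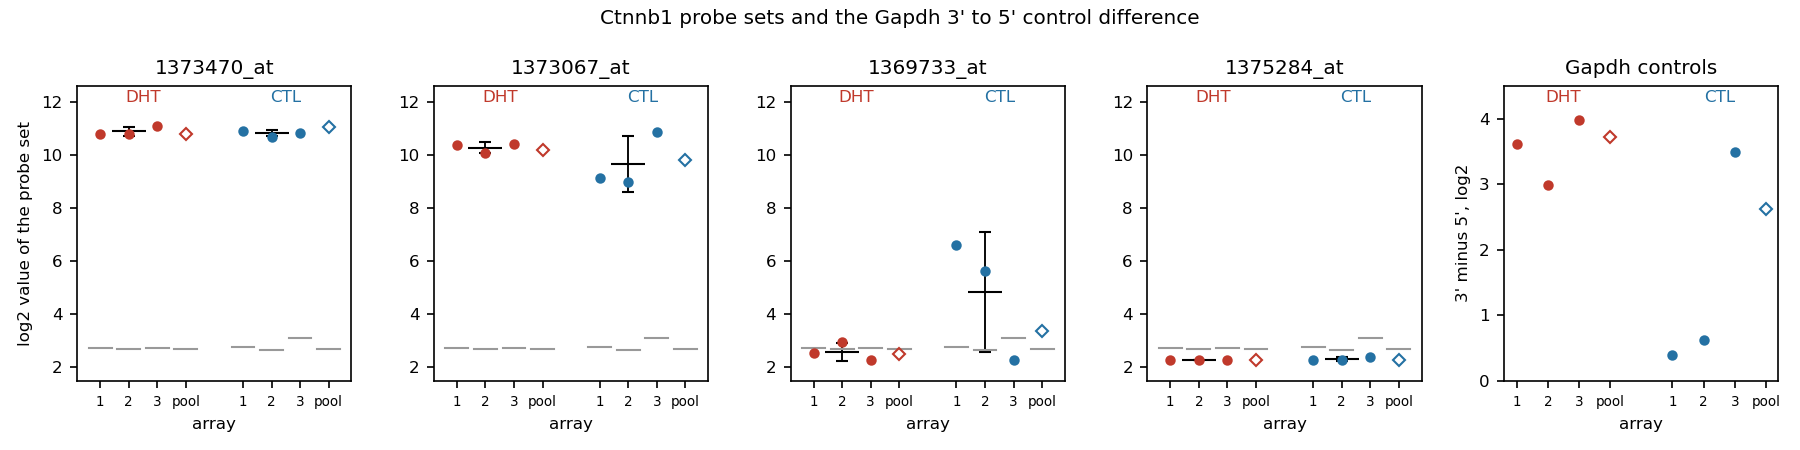
The first 4 panels plot the log2 value of each Ctnnb1 probe set on each array, DHT animals in red left of CTL animals in blue, with pooled RNA as open diamonds, the mean and SD of the 3 animals in black and the background level as grey ticks. The last panel plots the Gapdh 3' minus 5' difference in log2 units on the same arrays. CTL replicates 1 and 2 stand apart in the panels of 1373067_at, 1369733_at and Gapdh, and the first panel is level at 10.70 to 11.09.

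Axin2 limits the pathway as a scaffold of the destruction complex and is itself switched on by β-catenin, which makes it a common readout of canonical signalling. It was near background in 2 of 3 DHT animals and in 3 of 3 CTL animals, with 2.69, 2.65 and 2.81 in DHT and 2.54, 2.53 and 3.09 in CTL. The value of CTL replicate 3 was at the raised background level of its array. The log2 difference was 0.00084 (SE 0.18, adjusted p = 0.999), so a difference of signal was not detectable here in a gene whose level was barely measured.

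Of the 10 genes 7 had a promoter window in RefSeq (rat build GRCr8, 250 bases before to 50 after the start), and these were searched on both strands for CTTTGAA and CTTTGAT, forms of the core that TCF/LEF factors bind. Axin2 was the only one of the 7 with a match, beside 2921 of 33469 windows of all genes (8.73%) and 8 of 73 of the other pathway genes (11.0%). The 250 bases before the Axin2 start (chr10:94398535-94398784, plus strand) are shown because Axin2 is the target gene of the set, and next to them those of Nkd1 (chr19:34722847-34723096, minus strand), an inhibitor of the pathway and a target gene whose signal was above background in all 6 animals. Nkd1 was chosen after its values were seen. Capitals mark the matches, which begin 232 and 132 bases before the start in Axin2 and 141 bases before it in Nkd1.
Axin2: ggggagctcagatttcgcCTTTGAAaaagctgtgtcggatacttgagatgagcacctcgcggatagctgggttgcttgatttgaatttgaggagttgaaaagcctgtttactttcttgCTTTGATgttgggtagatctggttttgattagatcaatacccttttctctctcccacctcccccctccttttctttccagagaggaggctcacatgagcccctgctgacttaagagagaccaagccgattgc
Nkd1: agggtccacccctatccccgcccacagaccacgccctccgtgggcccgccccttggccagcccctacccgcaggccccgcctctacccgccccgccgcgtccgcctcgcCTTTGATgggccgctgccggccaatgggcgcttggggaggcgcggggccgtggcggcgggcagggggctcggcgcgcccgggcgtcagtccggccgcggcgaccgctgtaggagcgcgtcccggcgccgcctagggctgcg
A match describes the letters of the window and does not show binding. Nkd1 had 5.74, 5.31 and 5.81 in DHT, against 4.29, 4.55 and 6.33 in CTL, and again CTL replicate 3 stood outside the others. Its log2 fold change was 0.57 (adjusted p = 0.896), and 1.20 without CTL replicate 3 (adjusted p = 0.0545). In that fit it was called, as were 5.23% of all probe sets.

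The rest of the pathway was followed in 100 genes in 8 lists, of which 78 were measured. None was called in either direction, and 16 of the 78 had an unadjusted p under 0.05 in limma's test, beside 11.9% of all probe sets. The 78 log2 fold changes were 39 above and 39 below 0, with a median of -0.00. The groups did not overlap for 19 genes higher and 6 lower in DHT, beside 14.3% higher and 6.81% lower of all genes, and 21 genes were near background in all 6 animals. The other 57 genes had a median log2 fold change of 0.19, beside 0.03 over all probe sets filtered in this way. At a false discovery rate of 10% with no minimum fold, which 1.87% of probe sets passed, 2 pathway genes passed, Lef1 and Lrp6, and both were higher in DHT ovaries.

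Lef1 is a factor that carries β-catenin to DNA. It had 3.56, 3.68 and 3.60 in DHT, against 2.90, 3.03 and 3.00 in CTL, a narrow spread in both groups. Its log2 fold change was 0.63 (SE 0.07, adjusted p = 0.0539), or 1.55-fold, and 0.64 without CTL replicate 3. Its CTL values lay close to the background level, and CTL replicate 3 lay under it. The second probe set of Lef1 gave 0.15 (adjusted p = 0.896).

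Lrp6 is the co-receptor that Wnt ligands join to a frizzled receptor. It had 4.20, 4.19 and 4.32 in DHT, against 3.70, 3.65 and 3.84 in CTL. Its log2 fold change was 0.51 (SE 0.08, adjusted p = 0.0918), and 0.56 without CTL replicate 3. The arrays of pooled RNA did not show it, with 3.95 in DHT and 3.94 in CTL.

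The TCF/LEF factors and their co-regulators had the highest median of the 8 lists. Of 12 measured genes 9 had a log2 fold change above 0, the median was 0.44, and the groups did not overlap for 6 genes higher and 2 lower in DHT, beside the same 14.3% and 6.81% of all genes. Tcf7l2, another partner of β-catenin, had 7.39, 7.41 and 7.65 in DHT, against 7.04, 6.82 and 6.28 in CTL (log2 fold change 0.77, adjusted p = 0.251, and 0.55 without CTL replicate 3). The mean of the probe sets of Tcf7l2 differed by 0.52 (adjusted p = 0.529). In the planar polarity arm, which steers cell orientation without β-catenin, 7 of 8 measured genes were above 0 and the median was 0.36. Without CTL replicate 3 the median of the TCF/LEF list was 0.38 and that of the planar polarity arm 0.44, the reverse order. Its core gene Prickle2 had 6.17, 5.98 and 6.35 in DHT, against 5.33, 5.17 and 4.39 in CTL (log2 fold change 1.21, adjusted p = 0.162). Without CTL replicate 3, the lowest animal, Prickle2 differed by 0.92 (adjusted p = 0.046), under 2-fold, and the mean of its probe sets differed by 0.55. Daam1, a formin of the same arm, differed by 0.31 (adjusted p = 0.387).

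Target genes of β-catenin had no common direction, with 5 of 11 above 0 and a median of -0.02. Of the 11 genes, 3 were near background in all 6 animals, and the other 8 had a median of 0.29. Twist1, a transcription factor of mesenchymal cells, had 6.32, 6.29 and 6.51 in DHT, against 5.19, 4.99 and 5.78 in CTL. Its log2 fold change of 1.05 (SE 0.22, adjusted p = 0.141) was 1.28 without CTL replicate 3 (adjusted p = 0.0223). In that fit Twist1 was called higher, and 5.23% of all probe sets were called. The mean of its probe sets differed by 0.40 (adjusted p = 0.246) with all animals. Stromal fibroblast markers, all 6 of which had a higher mean in DHT, summed to 6593, 7898 and 7902 in DHT and 7819, 5265 and 1566 in CTL. Without CTL replicate 3 Col1a1, Col1a2 and Col3a1 turned to -0.23, -0.41 and -0.33, and Dcn, Lum and Pdgfra stayed above 0 (0.66, 0.63 and 0.78). The part of stromal cells in the Twist1 difference was not tested. Ccnd1, the cell cycle gene for cyclin D1, ran the other way at 4.08, 4.29 and 4.30 in DHT and 4.48, 4.88 and 4.97 in CTL (log2 fold change -0.55, adjusted p = 0.246).

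Of 13 other ligands and export genes 8 were near background in all animals. Wnt2b had 3.01, 3.19 and 3.23 in DHT, against 5.28, 3.32 and 3.30 in CTL, and its log2 fold change of -0.83 (adjusted p = 0.768) was -0.17 without CTL replicate 1 and -1.16 without CTL replicate 3. Wnt6 differed by 0.10 (adjusted p = 0.896). Among receptors Fzd8 differed by 0.60 (adjusted p = 0.363). Of the other secreted inhibitors, Dkk3 had 6.67, 6.45 and 5.88 in DHT and 5.73, 5.36 and 5.38 in CTL (log2 fold change 0.84, adjusted p = 0.246). The other probe sets of Dkk3 were near background in all animals, and the mean of all differed by 0.15. Frzb, another protein of the secreted frizzled family, was near background in all 3 DHT animals and in 2 of 3 CTL animals. In the R-spondin system, which regulates the removal of receptors, Lgr6 differed by 0.21 (adjusted p = 0.896), and by 0.34 without CTL replicate 3. Znrf3 had 6.04, 6.19 and 6.61 in DHT, against 5.34, 5.55 and 6.59 in CTL, so that CTL replicate 3 lay among the DHT animals. Its difference was 0.45 (adjusted p = 0.878), and 0.83 without CTL replicate 3 (adjusted p = 0.108). The kinase genes Csnk1d and Csnk1e, whose products phosphorylate pathway components, differed by 0.63 (adjusted p = 0.21) and 0.31 (adjusted p = 0.389). The probe sets of Csnk1d ran in both directions, with -0.44 for 1370527_a_at, which was above background on every array, and 0.0132 as the mean of all. For Csnk1e the mean of all probe sets differed by 0.058.

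**Figure D4:**
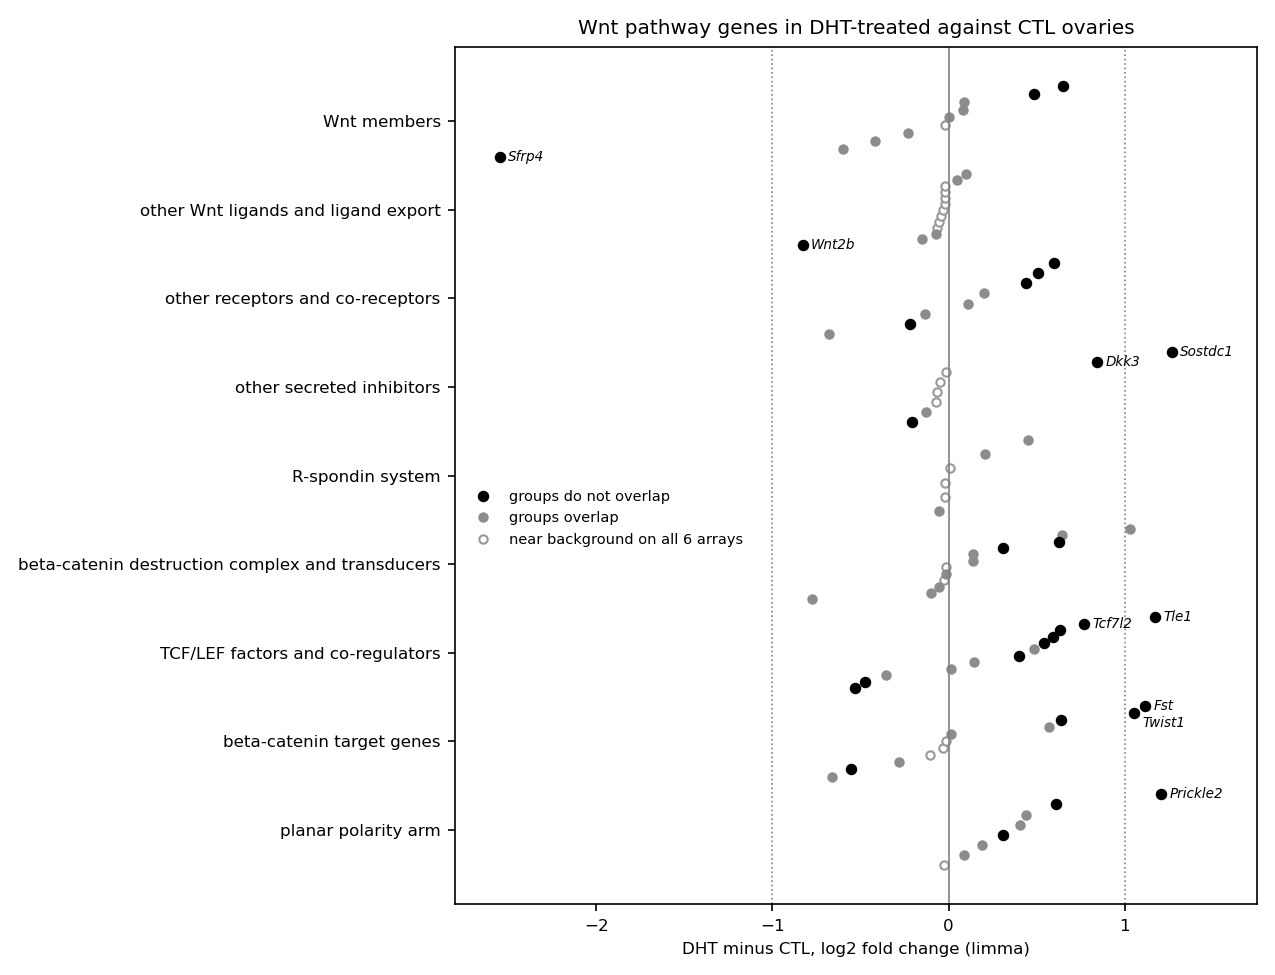
Each point is the log2 fold change of DHT over CTL ovaries (horizontal axis) of 1 gene, in rows for the 10 Wnt genes and the 8 lists of other pathway genes. Black points are genes whose groups do not overlap, grey points those that do, and open points genes near background on all 6 arrays. Dotted lines mark 2-fold. Sfrp4 at -2.55 lies farthest from 0.

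Only Wnt4 and Sfrp4 varied enough over the 6 animals (SD of 0.5 or more) to look for genes of like pattern among 4396 others. Over the 6 arrays of single animals, Wnt4 was most like Akt2 (Pearson r 0.997), Rab27a (0.992) and Ahcyl2 (0.991), all highest in CTL replicate 2. Sfrp4 was most like Arsb (0.991), Bpnt1 (0.985) and Hp (0.983), which encode a lysosomal sulfatase, a nucleotide phosphatase and haptoglobin. These r values describe 6 arrays in 2 groups and share whatever sets CTL replicate 2 apart.

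The arrays of pooled RNA gave the same direction as the single animals for 8 of the 10 genes, the others being Sfrp2 and Ctnnb1. Sfrp4 read 3.71 in the DHT pool and 7.31 in the CTL pool, and Wnt4 read 4.11 in the DHT pool and 4.87 in the CTL pool. Fzd1 read 6.73 in the DHT pool and 6.38 in the CTL pool, and Fzd2 read 3.82 in the DHT pool and 3.65 in the CTL pool.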

How the data were processed

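The authors normalized the 8 Affymetrix arrays by GC robust multi-array averaging (GCRMA), which corrects background by probe base composition, normalizes between arrays and summarizes probes, and they deposited log2 values per probe set. The version is not given in the sources used here. Scanner files were not processed, so these steps could not be varied at probe level. Gene symbols came from the platform annotation, in which 20826 of 31042 probe sets carry 1 symbol, 436 carry several and 9780 carry none here. The 57 Affymetrix controls were left out of tests. DHT and CTL animals (3 each) were compared in R 4.3.3 with limma 3.58.1 (lmFit, then eBayes), two-sided, without the arrays of pooled RNA and without a block, with Benjamini-Hochberg adjustment over 31042 probe sets. The thresholds follow the study. An exact permutation test of 3 against 3 cannot go below p = 0.1, so none was used. On all 8 arrays 10469 probe sets lay at or under background. The number of arrays limits the precision.

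The members, the lists and the tests were chosen with earlier results of these data known. Named genes are all members, pathway genes called, the 2 with the smallest p in each list and, for members that vary, the 3 genes of most like pattern, and others are said to be chosen after their values were seen. Alternatives were a replicate block, the pooled arrays as replicate 4, scaling to equal medians, quantile normalization, a Gapdh 3' minus 5' covariate, array quality weights, a mean-variance trend, a filter on dim probe sets, each array left out, other thresholds and the mean of a gene's probe sets. Taking the other probe sets of Ctnnb1 and Fzd4 on their own was chosen after seeing the data. The fit was checked on simulated arrays. Replicates are separate animals.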

Additional observations from a re-analysis of the deposited data

How the results depend on the processing

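By its brightest probe set, no Wnt gene was called in the comparison of 3 DHT with 3 CTL animals or with any 1 animal left out, whereas probe sets 1373067_at and 1369733_at of Ctnnb1 were called without CTL replicate 3. Sfrp4 was called lower with the pooled arrays as replicate 4 (-2.81, 1 gene called), as were 1.39% of all probe sets. Fzd1 was called higher with the Gapdh covariate (1.17, 1 gene called), as were 8.57% of all probe sets. Sfrp4 was below 0 under every alternative run, with -3.01 to -1.80 when 1 animal was left out. Directions turned for the results below, and the causes were not tested. Of these Fzd4 (-0.42), Znrf3 (0.45), Lgr6 (0.21) and Ctnnb1 (0.09) were above background in every animal by their brightest probe sets. With the Gapdh covariate Wnt5a was -0.27, Fzd4 0.17, Axin2 -0.37, Wnt6 -0.13, Znrf3 -0.33 and Lgr6 -0.0535. Of the CTL arrays only that of replicate 3 had a Gapdh difference in the range of the DHT animals, so the fit with the covariate leans on it. Sfrp2 was 0.00438 with quantile normalization, 0.0332 with median scaling and 0.00976 with array weights, and it was left out with dim probe sets. Ctnnb1 was -0.00249 with the pooled arrays, -0.0893 with quantile normalization, -0.39 as the mean of its probe sets, -2.25 by probe set 1369733_at and -0.0319 by 1375284_at. Wnt6 was -0.00999 as the mean of its probe sets. With 1 animal left out, Wnt5a ranged over -0.11 to 0.22, Sfrp2 over -0.0416 to 0.013, Ctnnb1 over -0.0112 to 0.14 and Axin2 over -0.095 to 0.19.

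Of the 78 other pathway genes, 3 were called higher with the pooled arrays (Tle1, Twist1 and Prickle2), beside 533 of all 31042 probe sets. Median scaling gave 1 higher (Twist1), beside 209 probe sets. Array weights gave 2 higher (Nkd1 and Twist1) and 1 lower (Ryk), beside 730 and 1144 probe sets. The Gapdh covariate gave 6 higher, beside 8.57% of all probe sets. At any fold 2 were higher, beside 431 probe sets. With 1 animal left out, 0 to 2 were higher and 0 to 1 lower, beside 0 to 654 and 0 to 968 probe sets. Ryk, a receptor named after its values were seen, had 4.10, 4.27 and 3.86 in DHT and 5.94, 5.40 and 2.93 in CTL, and was -0.68 with all animals and -1.59 without CTL replicate 3.

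The 211 higher and 109 lower probe sets became 533 and 433 with the pooled arrays, 21 and 40 with the mean-variance trend, 730 and 1144 with array weights, 2659 and 1088 with the Gapdh covariate, 18 and 10 at a false discovery rate of 5%, and 0 to 654 and 0 to 968 with 1 animal left out. At any fold 431 were higher, and 175 were lower with dim probe sets left out. With quantile normalization they were 87 higher and 86 lower, 50.3% higher against 65.9%. Without DHT replicate 1, 2 or 3 limma called 0, with 2555, 2623 and 2529 probe sets at an unadjusted p under 0.05. CTL replicate 3 had an array weight of 0.028, against 1.07 to 7.76 for the others, from an estimate that gave a convergence warning.

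The replicate numbers were not taken to pair the animals. Deviations from the group means correlated at -0.07, 0.44 and 0.34 for same-numbered animals, and at -0.53 to 0.48 for animals of different numbers. With the number as a replicate block 0 probe sets were called higher and 0 lower, and 3817 had an unadjusted p under 0.05, and no call of a Wnt gene changed.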

Other observations

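Outside the rule for naming, 6 of the 78 other pathway genes differed by 2-fold or more between the group means without a call, beside 7.11% of all genes, and these were chosen after their values were seen. Beside Twist1 and Prickle2 they were Sostdc1, Tle1, Fst and Apc, each with the higher mean in DHT. Sostdc1, a secreted inhibitor of Wnt and BMP signals, had 7.32, 7.08 and 9.16 in DHT, against 6.86, 6.99 and 5.90 in CTL (log2 fold change 1.27, limma adjusted p = 0.565, and 0.93 without CTL replicate 3), and the single highest animal was DHT replicate 3. Tle1, a co-repressor of TCF/LEF factors, had 5.05, 5.11 and 5.94 in DHT, against 4.79, 4.09 and 3.70 in CTL (1.17, adjusted p = 0.314), and 0.92 without CTL replicate 3. Fst, the gene for the activin antagonist follistatin, had 8.10, 8.19 and 8.58 in DHT, against 7.60, 7.88 and 6.05 in CTL (1.11, adjusted p = 0.498), and 0.55 without CTL replicate 3. Apc, a scaffold of the destruction complex, had 6.47, 6.79 and 7.03 in DHT, against 6.88, 6.25 and 4.06 in CTL (1.03, adjusted p = 0.804), and 0.19 without CTL replicate 3.

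The arrays of pooled RNA can be set beside the log2 of the mean linear value of the 3 animals. For Sfrp4 the DHT pool read 3.71 against 3.91 from its animals, and the CTL pool read 7.31 against 6.77. For probe set 1369733_at of Ctnnb1 the DHT pool read 2.51 against 2.61, and the CTL pool read 3.38 against 5.66 from its animals, a gap of more than 2 log2 units that the other Ctnnb1 probe sets did not show (9.82 against 9.94 for 1373067_at). The Gapdh 3' minus 5' difference of the CTL pool, 2.62, lay between those of CTL replicates 1 and 2 and that of replicate 3.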
